A study of Rattus norvegicus with 4 samples.

Results

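Genes that are commonly used as readouts of p53 were followed in rat alveolar macrophages exposed to iron oxide particles: Cdkn1a, Mdm2, Bax, Bbc3, Gadd45a, Gadd45b, Ccng1, Phlda3 and Tp53inp1. The 9 genes were found among 16581 named genes by matching the RefSeq accession of each non-control array probe to its current gene symbol, which gave 11 probes for the 9 genes. The cells were NR8383, a continuous line of macrophages that came from lavage of a normal rat lung, described by the labels as at 20 passages. After 48 h in flasks they received the Fe2O3 particle NRCWE018 at 2 µg/mL for 4 h. The study set 4 exposed against 4 control cultures. Values are given for the 4 exposed cultures, replicates 1 to 4, each with 1 single-colour array; controls were not analysed here. Values therefore describe exposed cells, not a response to the particle, and all tests concern differences among exposed cultures.

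p53 is a transcription factor that is held low by the ubiquitin ligase MDM2 and is stabilised as a protein when DNA is damaged or growth signals are disturbed. It binds a pair of decamer half-sites near its target genes and raises the transcription of cell cycle inhibitors, of repair factors, of proteins that permeabilise mitochondria and of its own inhibitor Mdm2, which closes a negative feedback loop. Because p53 is controlled mainly as a protein, the RNA of its targets is the usual array readout of its activity. Several of these genes, among them Cdkn1a, Gadd45a and Gadd45b, are also induced by routes that do not need p53.

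Promoter windows were available for 6 of the 9 genes, and 2 of these windows held a near-complete p53 site. These 2 are shown with the window of Gadd45a, which held a single half-site, because this is the sequence p53 is known to read. RefSeq promoter windows on GRCr8, from 250 bases before to 50 bases after the start site, were found for 6 of the 9 genes: Cdkn1a, Mdm2, Gadd45a, Gadd45b, Ccng1 and Phlda3. They were searched for the p53 half-site consensus of 10 bases, which is its own reverse complement, so that both strands were read, and for a site of 20 bases made of a pair of half-sites side by side, in which overlapping matches were allowed. The first sequence is Cdkn1a, on the plus strand of chr20:7150682-7150981, with its best site of 20 bases, which starts at -201 from the start site, in capitals. The second is Ccng1, on the minus strand of chr10:25684827-25685126, with its best site, which starts at -242, in capitals. The third is Gadd45a, on the minus strand of chr4:97486750-97487049, with its only half-site, at -48, in capitals.
Cdkn1a: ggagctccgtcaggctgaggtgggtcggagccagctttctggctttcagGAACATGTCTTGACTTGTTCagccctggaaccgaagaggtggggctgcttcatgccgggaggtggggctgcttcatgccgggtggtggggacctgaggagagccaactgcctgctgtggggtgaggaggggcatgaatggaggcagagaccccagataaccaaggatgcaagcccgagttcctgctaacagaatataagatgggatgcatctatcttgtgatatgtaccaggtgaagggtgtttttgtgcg
Ccng1: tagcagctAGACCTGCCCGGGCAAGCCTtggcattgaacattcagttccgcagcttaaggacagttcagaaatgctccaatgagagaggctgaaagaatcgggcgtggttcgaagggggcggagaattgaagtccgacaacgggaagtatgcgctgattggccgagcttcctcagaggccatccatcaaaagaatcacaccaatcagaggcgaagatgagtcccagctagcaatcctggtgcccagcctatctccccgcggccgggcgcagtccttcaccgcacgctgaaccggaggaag
Gadd45a: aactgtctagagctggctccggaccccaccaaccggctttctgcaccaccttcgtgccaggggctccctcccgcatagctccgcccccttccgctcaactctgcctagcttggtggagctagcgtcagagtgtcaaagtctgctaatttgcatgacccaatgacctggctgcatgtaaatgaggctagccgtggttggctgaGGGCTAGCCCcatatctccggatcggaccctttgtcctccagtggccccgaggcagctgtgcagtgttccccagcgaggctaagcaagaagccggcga
The sites of Cdkn1a and Ccng1 each departed from the consensus at 1 of 20 bases. Of 33365 distinct RefSeq windows of this length, 24 (0.0719%) held a site with at most 1 base off, and 0 held a site with none off. At least 1 half-site was present in 3 of the 6 windows, those of Cdkn1a, Gadd45a and Ccng1, and in 7.98% of all windows. The best 20-base match was 4 bases off in Phlda3 and Gadd45a, 5 in Mdm2 and 6 in Gadd45b. A match is a run of letters and no measurement of binding, and a window without one says only that these letters were not in those 300 bases.

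The 9 genes were all measured above background. A probe counted as above background on an array when the scanner software marked it well above background, and each of the 11 probes carried this mark on all 4 arrays. Among all named genes the share above background on all 4 arrays was 50.5%, or 8376 genes, which are called the tested genes. Levels are given as log2 of the processed signal intensity minus log2 of the 75th percentile of the same array, so 0 is the 75th percentile and a difference of 1 is a doubling. Levels of different probes cannot be set against each other, because probes bind with different strength. A level averages over all cells of a culture, so the share of cells with a transcript and the amount per cell cannot be told apart. No spot was saturated.

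The arrays were of similar quality, with replicate 4 the dimmest. The 75th percentile of signal lay between 756 and 1082, and the share of probes above background between 37.8% and 41.2%, both lowest on replicate 4. After scaling, the median deviation of all tested genes from their own means was 0.07 on replicate 4, while the other arrays lay between -0.03 and 0.01. Before scaling, 78.9% of the tested genes had their lowest signal on replicate 4. All arrays lay on 1 slide, at a position each, so culture and position cannot be told apart. Of the markers of the labelled cell type, the macrophage, 8 of 8 were above background on all arrays, including Cd68, Csf1r and Spi1. Of endothelial markers 3 of 4 were above it on all arrays as well, Vwf, Pecam1 and Cdh5, and their part in the results was not tested. The other lists were mostly below background, with 0 of 6 lung epithelial markers, 1 of 5 fibroblast markers (Dcn), 1 of 3 lymphocyte markers (Cd3d) and 1 of 3 granulocyte markers (S100a8) above it on all arrays.

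**Figure D1:**
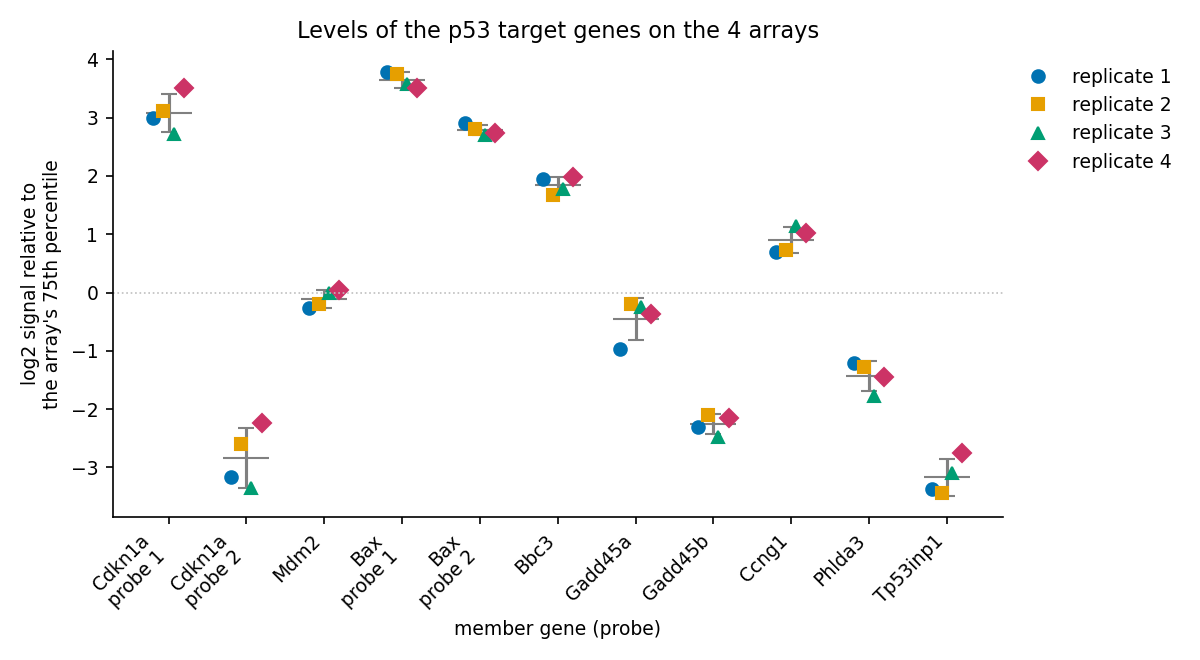
Scaled log2 signal (y axis, 0 at the array's 75th percentile) for the 11 probes of the 9 p53 target genes (x axis), with 1 symbol per replicate, a bar at the mean and whiskers of 1 SD over 4 arrays. Within a probe the arrays lay close together, with the widest range, 1.12, at the second Cdkn1a probe; heights of different probes are not comparable.

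Cdkn1a encodes p21, the inhibitor of cyclin-dependent kinases through which p53 stops the cell cycle. Its first probe, printed 10 times on every array, was at 2.99, 3.11, 2.72 and 3.51 in replicates 1 to 4, a mean of 3.08 ± 0.33 (SD, n = 4). Replicate 4 was highest and replicate 3 lowest, 1.73-fold apart. The second probe, with 1 spot per array, was at -3.17, -2.60, -3.35 and -2.23, and put the 4 arrays in the same order over a 2.17-fold range. It was dim, with a signal of 106 to 162 beside a local background of 41.0 to 47.0. Both probes read the same 4 labelled samples, so their shared order is no independent measurement of the cultures. Both probes kept replicate 3 lowest and replicate 4 highest under all 5 scalings and background corrections that were run.

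The repeat spots show how far Cdkn1a differed beyond spot noise. Single spots of the first probe that were not marked as outliers ran from 2.87 to 3.05 in replicate 1, from 2.98 to 3.22 in replicate 2, from 2.62 to 2.88 in replicate 3 and from 3.39 to 3.74 in replicate 4. Every spot of replicate 4 thus lay above every spot of the other arrays, while replicates 1 and 2 overlapped and the highest spot of replicate 3 reached the lowest of replicate 1. The spot SD within an array had a median of 0.07, against an SD of 0.33 between arrays. Repeat spots share 1 labelled sample, so they measure spot noise and not the error of a culture.

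**Figure D2:**
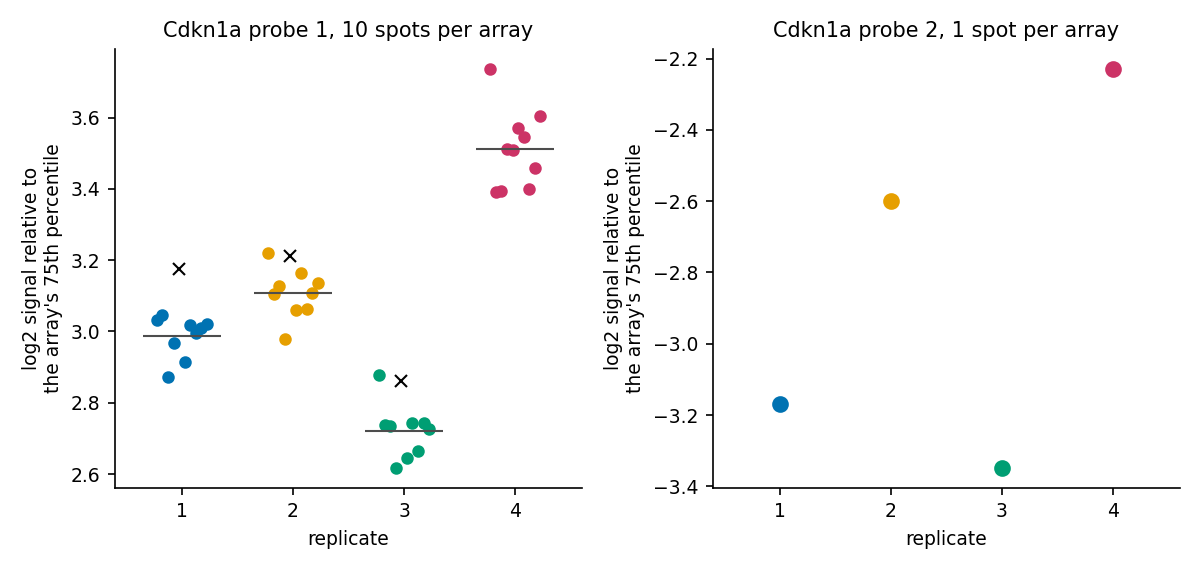
Scaled log2 signal (y axis, 0 at the array's 75th percentile) of single Cdkn1a spots in replicates 1 to 4 (x axis), for the probe with 10 spots per array (left, line at the mean of the spots used, crosses for spots marked as outliers) and the probe with 1 spot (right). Replicate 4 lies above 3.39 on the left, above all other arrays, and both probes give the order 3, 1, 2, 4 from low to high.

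Before scaling, replicate 4 differed little from replicates 1 and 2 on the first Cdkn1a probe. The unscaled signal intensity of the first Cdkn1a probe was 8492, 8478, 7132 and 8630 in replicates 1 to 4. On this probe replicate 4 was thus the highest before scaling too, on the array whose signal was lowest for most genes. The margin was smaller than the error of 10.0% of the signal that the scanner software gave. On the second probe replicate 2 was the highest before scaling, at 162 against 161 on replicate 4. Of the tested genes, 1.76% had their highest unscaled signal on replicate 4. In limma's test of the variance between arrays against genes of like level, Cdkn1a had an unadjusted p of 0.0271 and an adjusted p of 0.700, and it did not pass. Without replicate 4 the unadjusted p in this limma test was 0.205, and without replicate 3 it was 0.0640. Replicates 4 and 3 were the highest and lowest arrays for Cdkn1a. Leaving out such an array tends to lower the spread, so these values are only a description.

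Gadd45a and Gadd45b encode small acidic proteins that bind p21, PCNA and the kinase MAP3K4 and link stress to cell cycle arrest and to p38 and JNK signalling. Gadd45a was at -0.98, -0.20, -0.25 and -0.36 in replicates 1 to 4, a mean of -0.45 ± 0.36 (SD, n = 4). Replicate 1 stood below the other arrays, which lay close together, and the highest array was 1.71-fold above it. The gap below the other arrays took 0.795 of the whole range, which stays under Dixon's critical value for 4 values; none of the 11 probes exceeded that value, beside 5.87% of all tested genes. In limma's test of excess spread the unadjusted p was 0.0585 and the adjusted p 0.898. Without replicate 1 the unadjusted p in this limma test was 0.819. Replicate 1 was the array farthest from the mean of Gadd45a, and leaving out such an array lowers the spread in any gene, so this value is only a description.

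Gadd45b differed less. Its probe was at -2.31, -2.10, -2.48 and -2.15, a mean of -2.26 ± 0.17 (SD, n = 4), with the arrays 1.30-fold apart. Replicate 1, which was low for Gadd45a, lay between replicates 3 and 4 for Gadd45b. The third gene of the family, Gadd45g, was above background on no array.

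Ccng1 encodes cyclin G1, which brings the phosphatase PP2A to MDM2 and is a long-known p53 target. It was at 0.70, 0.72, 1.15 and 1.02 in replicates 1 to 4, a mean of 0.90 ± 0.22 (SD, n = 4). Replicates 3 and 4 were higher than replicates 1 and 2, with the extremes 1.36-fold apart. The SD of genes of like level was 0.17, and limma's adjusted p for Ccng1 was 0.995.

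Phlda3 encodes a short pleckstrin homology protein that competes with the kinase AKT for membrane lipids. Its levels were -1.21, -1.28, -1.78 and -1.45, a mean of -1.43 ± 0.25 (SD, n = 4), with replicate 3 lowest, as for Cdkn1a and Gadd45b. Tp53inp1 encodes a nuclear and autophagy-linked cofactor of p53. It was at -3.38, -3.44, -3.10 and -2.76, a mean of -3.17 ± 0.31 (SD, n = 4), with replicate 4 highest, as for Cdkn1a. The Tp53inp1 probe was dim, with a signal of 90.5 to 126 after background subtraction beside a local background of 40.0 to 47.0. Neither gene passed limma's test, with an adjusted p of 0.995 for both.

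Mdm2, which encodes the ligase that marks p53 for degradation, was at -0.27, -0.19, -0.01 and 0.05 in replicates 1 to 4. The mean was -0.11 ± 0.15 (SD, n = 4), and the SD of genes of like level was 0.18. The highest and lowest arrays were 1.25-fold apart. The median spot SD within an array was 0.061, with replicate 4 the widest at 0.20 and the other arrays between 0.0090 and 0.082. The SD of Mdm2 between arrays was below that of genes of like level, and its limma adjusted p was 0.995.

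Bax and Bbc3 are the members of the BCL2 family among the 9 genes: BAX opens the outer mitochondrial membrane, and BBC3, also called PUMA, frees it to do so. The first Bax probe was at 3.78, 3.74, 3.57 and 3.50, a mean of 3.65 ± 0.13 (SD, n = 4). The second was at 2.91, 2.81, 2.71 and 2.73, a mean of 2.79 ± 0.09 (SD, n = 4). On both, replicates 1 and 2 were higher than replicates 3 and 4, over ranges of 1.21-fold and 1.15-fold. Bbc3 was at 1.95, 1.68, 1.78 and 1.97, a mean of 1.85 ± 0.14 (SD, n = 4), with the arrays 1.22-fold apart. The ranges of Bax, Bbc3 and Mdm2 were the smallest of the 9 genes, and limma's adjusted p was 0.995 for Bax and Bbc3 alike.

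The scanner software gave an error that lay between 10.0% and 11.5% of the signal for all 11 probes. It was 10.0% on every array for both Bax probes and the first Cdkn1a probe, and highest for the dim Tp53inp1 probe. Repeat spots give the spot noise seen on these arrays. The median spot SD within an array was 0.017 for the first Bax probe, against an SD of 0.13 between arrays, and 0.022 for the second, against 0.09. For Gadd45b it was 0.13, against 0.17 between arrays. The arrays therefore differed by more than the repeat spots for both Bax probes, as for the first Cdkn1a probe, and by a smaller margin for Gadd45b. This is a description of sizes, with no test, and all these probes but the first of Cdkn1a had a pair of spots per array.

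The 9 genes did not follow 1 common order of arrays. As deviations from its own mean, Cdkn1a was at -0.10, 0.03, -0.36 and 0.43, Gadd45a at -0.53, 0.24, 0.20 and 0.09, and Bax at 0.13, 0.10, -0.08 and -0.15 in replicates 1 to 4. Replicate 4 was the highest array for 4 of the 9 genes, Cdkn1a, Mdm2, Bbc3 and Tp53inp1, beside 36.3% of all tested genes. This count depended on the scaling. It fell to 2, Cdkn1a and Tp53inp1, under quantile normalization, the percentile over probes above background and all spots kept, where Mdm2 was highest on replicate 3 and Bbc3 on replicate 1, beside 22.4%, 25.2% and 22.7% of all tested genes. With normexp it was 5, Phlda3 being added, beside 51.6%. In the scaling used throughout, replicates 1, 2 and 3 were highest for 2, 2 and 1 of the 9, beside 19.9%, 23.6% and 20.1% of all tested genes. The lowest array was replicate 4 for 1 gene, Bax, beside 15.4% of all tested genes. It was replicate 1, 2 or 3 for 3, 2 and 3 of the 9, beside 29.9%, 20.4% and 34.4%. Under the 4 other scalings the lowest array stayed the same for 6 of the 9 genes, the highest for 5, and both for 2, Cdkn1a and Gadd45b. The shares of all tested genes that kept these arrays were not computed, so the counts do not set the 9 genes apart.

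**Figure D3:**
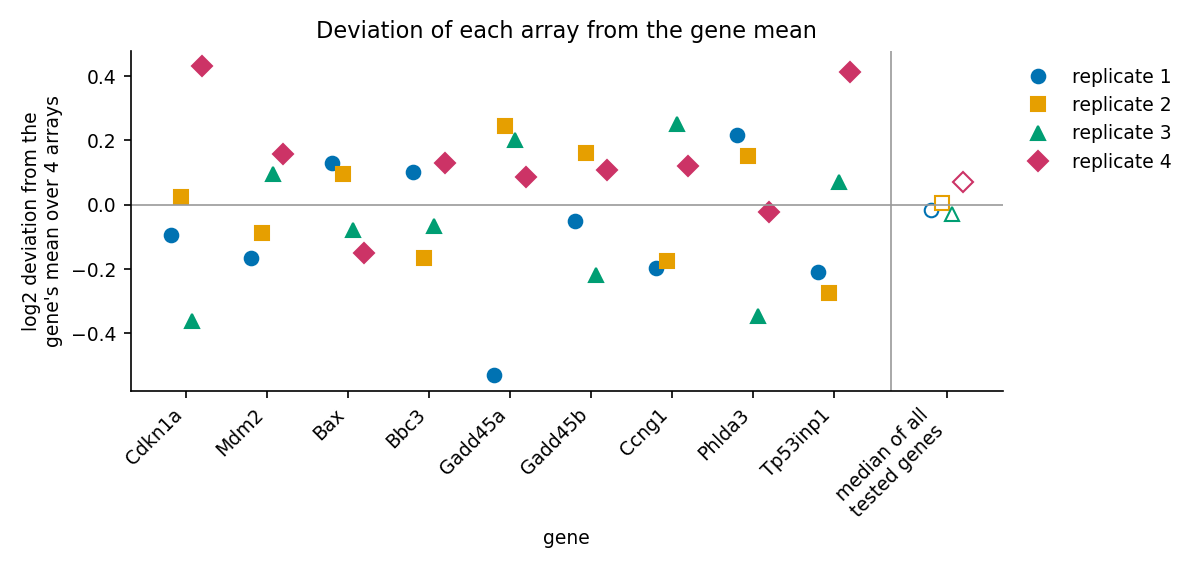
Log2 deviation of each array from the gene's own mean over 4 arrays (y axis) for the 9 p53 target genes (x axis, filled symbols by replicate) and the median deviation of all tested genes (open symbols, right). Replicate 4 is 0.43 above the mean for Cdkn1a and replicate 1 is 0.53 below it for Gadd45a, while Bax runs the other way from Cdkn1a on replicate 4.

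No p53 target gene varied between the exposed cultures beyond genes of like level at the adjusted threshold. In limma's test of excess spread, fitted over 8376 genes with Benjamini-Hochberg adjustment over all of them, 0 of 9 passed, against 0.191% of all tested genes. At an unadjusted p under 0.05 there was 1, Cdkn1a, beside 5.75% of all tested genes. The median SD of the 9 genes was 0.22 and that of all tested genes 0.18. The SD lay above that of genes of like level in Cdkn1a, Gadd45a, Ccng1, Phlda3 and Tp53inp1, and below it in Mdm2, Bax, Bbc3 and Gadd45b. The share of all tested genes above it was not computed, so this split is only a description. The series describes its cultures as biological replicates and gives no further detail, so these p-values measure the spread between these 4 samples, whatever its source. A p above the threshold with 4 arrays does not show that the cultures were alike.

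**Figure D4:**
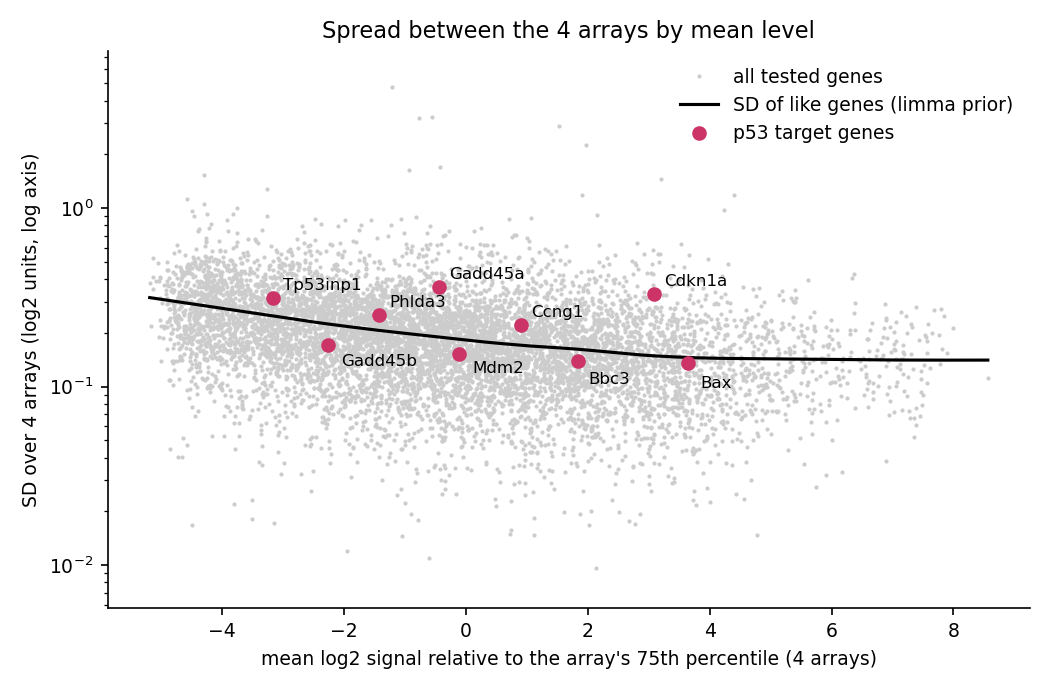
SD over the 4 arrays in log2 units (y axis, log scale) against the mean level (x axis) for all 8376 tested genes (grey), with the SD that limma fits for genes of like level (line) and the 9 p53 target genes (named points). Cdkn1a and Gadd45a lie farthest above the line, at SDs of 0.33 and 0.36 against 0.15 and 0.19, among many grey points that do so.

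Regulators of p53 were mostly above background, 10 of 13 measured genes on all arrays, beside 50.5% of all named genes. Mdm4, the MDM2 relative that masks the transactivation domain of p53, was at -0.86 ± 0.28 (SD, n = 4) on 1 of its 3 probes, the only one above background on all arrays. Atm, the kinase that reports double-strand breaks, was at -3.66 ± 0.28 (SD, n = 4) on 1 of its 2 probes, again the only one above background on all arrays. Chek1, a kinase that signals stalled replication, was at -4.33 ± 0.32 (SD, n = 4). Also above background on all arrays were Chek2, Ppm1d, Usp7, Hipk2, Rchy1, Cop1 and, on 1 of 3 probes, Tp63. Cdkn2a was above it on 1 array, and Tp53bp1 and Tp73 on none.

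Other growth arrest targets were above background in part. Of 8 measured genes 4 were above it on all arrays, near the share of 50.5% among all named genes. These were Btg1, an antiproliferative gene, at 3.81 ± 0.15 (SD, n = 4), Plk3, Ccng2 and Gtse1. Gadd45g, Btg2, Plk2 and Rprm were above background on none. The damage-induced killers were split as well. Of 8 measured apoptosis targets 5 were above background, beside 50.5% of all named genes. They were the death receptor Fas at -3.31 ± 0.24 and the caspase activator Apaf1 at -3.10 ± 0.21 (SD, n = 4), with Pidd1, Aen and Ei24. For Fas this held on 1 of its 2 probes. Pmaip1, the BH3-only gene also called Noxa, Perp and Zmat3 were above background on none, in contrast to Bbc3.

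Targets in repair and metabolism were above background in most cases, 10 of 12, beside 50.5% of all named genes. The damage-binding gene Ddb2 was at 0.50 ± 0.10 and the lesion sensor Xpc at -3.64 ± 0.12 (SD, n = 4), and Polk, Sesn2, Tigar, Gls2, Fdxr, Gdf15, Ddit4 and Dram1 were also above it. For Ddit4 this held on 1 of its 2 probes. Rrm2b, a ribonucleotide reductase subunit, and Epha2 were above background on none. Among the genes whose proteins work with those of the 9, 17 of 19 were above background, beside 50.5% of all named genes. These included the p21 targets Cdk2, at 0.01 ± 0.26, and Pcna, at 2.78 ± 0.22 (SD, n = 4). The 2 exceptions were Bcl2, which restrains BAX, and Cdk6. The Bcl2 relatives Bcl2l1 and Mcl1, the BAX-like Bak1 and the BH3-only Bcl2l11 were above background. For Bcl2l1 this held on 1 of its 4 probes, and for Bcl2l11 on 1 of its 2.

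**Figure D5:**
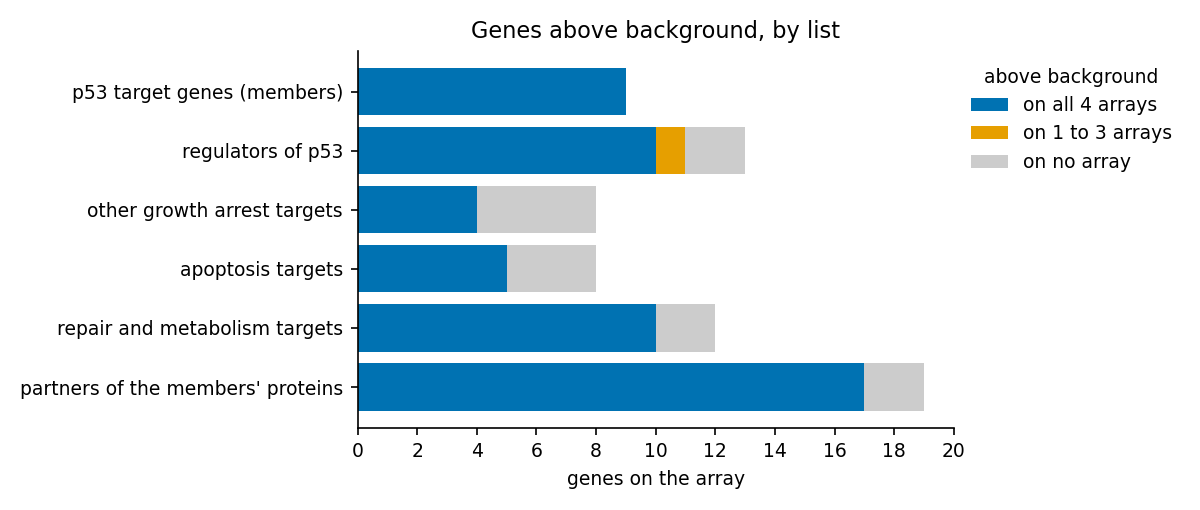
Number of genes on the array (x axis) that were above background on all 4 arrays, on 1 to 3 arrays or on none, for the 9 p53 target genes and 5 lists of related genes (y axis). All 9 target genes and 46 of the 60 related genes were above background on all arrays, beside 50.5% of all named genes. The list of other growth arrest targets had the largest grey share, 4 of 8, near the 43% of all named genes.

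Taking the 5 lists as a whole, 46 of 60 measured genes (76.7%) were above background on every array, beside 50.5% of all named genes. On no array were 13, beside 43% of all named genes, and Cdkn2a was intermediate. A dim probe may miss a transcript that is present. Several probes represented 17 list genes, and for 7 of these (41.2%) the probes disagreed, beside 862 of 3658 named genes with several probes (23.6%). In limma's test of excess spread 0 of the 46 passed after adjustment over all genes, and 2, Hipk2 and Rb1, had an unadjusted p under 0.05, with limma adjusted p of 0.795 and 0.860.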

How the data were processed

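Cy3-labelled cRNA from total RNA of 4 exposed NR8383 cultures was measured on 1-colour Agilent arrays for rat, per the labels. The authors extracted signal intensity values with Feature Extraction 11.0.1.1 (submitters' processing notes); these were background-subtracted and spatially detrended within each array with no scaling between arrays, per the file headers. Their normalization between arrays was not given in the sources used here. Samples were put in 1 group by their title, and no pair of arrays held an identical spot value.

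Of 62976 spots, 58717 were not controls. Spots marked as outliers were left out unless every spot of the probe on that array was marked, log2 signal was set relative to the array's 75th percentile, and repeat spots were averaged to 45598 probes. Above background means that more than a share of 0.5 of the used spots were marked well above background. Accessions were matched without version to the RefSeq table of GRCr8, for names only, since per the file headers the probes were placed on rn4. A symbol was found for 21109 probes. A gene was represented by its probe above background on most arrays, ties going to the highest mean.

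The test of excess spread used limma 3.58.1 (R 4.3.3). The variance between arrays was set against a prior fitted robustly as a trend on level, with 9.16 prior degrees of freedom, by an F test of the upper tail, with Benjamini-Hochberg adjustment over all tested genes and a threshold of 0.05. The procedure was tested on simulated data in which the planted spreads were larger, relative to genes of like level, than that of any of the 9 genes. The simulation therefore does not show whether spreads of the size seen in these genes would be called. Alternatives were the positive and significant mark, each replicate left out, the mean over probes, every probe tested, normexp (offset 50), quantile normalization, the percentile over probes above background on all arrays, all spots kept and a constant prior. Normexp was run on the median spot signal in place of the planned mean signal. The 9 genes were taken as given, the text names the first 3 measured genes of each list, with a level for those above background on all arrays, 1 gene of the lists is not reported here, and the genes and lists were chosen with earlier results of these data known. With 4 arrays, their number limits the precision, and correlations between genes over 4 arrays were not computed.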

Additional observations from a re-analysis of the deposited data

Results flagged for a closer look

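Among 11 probes of the p53 target genes above background on all arrays, 0 had an array far from the others by Dixon's ratio, the gap to the nearest array divided by the whole range. Of 60 other list and marker genes, 2 did, and chance flags about 1 in 20 such groups; among all tested genes the share was 5.87%.

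Hipk2, a kinase that phosphorylates p53, was at 2.03, 1.33, 2.01 and 1.98 in replicates 1 to 4. Replicate 2 lay far below the others, with a ratio of 0.926. Gdf15, a secreted stress cytokine and p53 target, was at 0.97, 1.004, 0.94 and 1.38, and replicate 4 lay far above the others, with a ratio of 0.854. In the scaling used throughout, replicate 4 was also the highest array for 4 of the 9 target genes, among them Cdkn1a and Tp53inp1, beside 36.3% of all tested genes. It was the array of lowest signal, and the part of signal in these values was not tested.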

How the results depend on the processing

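All 9 target genes were above background under the positive and significant mark, under each omission of 1 array and with detection on at least 1 array, and the number of related genes above background was 48 with the positive and significant mark, 47 with detection on at least 1 array and 46 without any 1 replicate. The number of the 9 genes past limma's adjusted threshold for excess spread was 0 under all 12 alternatives, as was that of the related genes. Over the 108 values for single target genes the limma adjusted p ran from 0.498 to 0.997. For Cdkn1a it ran from 0.498 to 0.986, and its unadjusted p in the limma test was under 0.05 in 9 of 12 alternatives. It was above it without replicate 3, without replicate 4 and with a constant prior variance (0.125). For Gadd45a the unadjusted limma p was under 0.05 in 3 alternatives: without replicate 3 (0.0426), without replicate 4 (0.0172) and with the mean over probes (0.0489). With its 1 probe, the levels of Gadd45a were the same under the mean over probes, and only the fit over all genes changed.

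The number of all genes past the threshold, 16, was more sensitive: 157 after normexp, 25 with all spots kept, 7 without replicate 2 and 5 with a constant prior variance. Mean levels of the 9 genes shifted by -1.24 with the percentile over probes above background, by -0.19 to -0.17 with quantile normalization and by -0.17 to 0.58 after normexp, the upper end for Tp53inp1. No paired analysis was possible because all samples belong to 1 group. Signal over background limits Tp53inp1, Gadd45b and the second Cdkn1a probe most.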
